A study of Mus musculus with 12 samples.

Results

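The genes described here make cholesterol or control how much of it is made: 27 named genes of the mevalonate and sterol pathway, of the SREBP2 machinery and of sterol transport, listed by name, with no threshold on their values in these livers. All 27 were found among the 36528 gene IDs of the count table, and all 27 passed the filter on low counts that left 16032 genes tested. RNA-seq of whole liver from mice was compared between 6 livers after carbon tetrachloride (CCl4), a solvent that liver P450 enzymes turn into a toxic radical, and 6 livers after the corn oil vehicle. The mice were injected into the peritoneum on 3 occasions each week, over 6 weeks in all. The labels state no allele or other agent for either group, and the strain, sex and age of the mice are not stated in them. Each library is taken from the labels as a separate sample, and nothing in them ties a library to a batch. Replicate numbers only name livers. In whole tissue, fewer cells of a type and less RNA per cell cannot be told apart.

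Hepatocytes build cholesterol from acetyl-CoA by way of mevalonate, farnesyl diphosphate, squalene and lanosterol. The transcription factor SREBP2, made by Srebf2, switches on most of these enzymes after Scap has carried it from the endoplasmic reticulum to the Golgi, where proteases release its active part. When sterols are plentiful, Insig1 and Insig2 hold Scap back, so that a liver that needs cholesterol raises the whole set of enzymes together.

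The promoters of 6 members are shown, named for their values in these livers, and no link from sequence to level was tested. Over the 12 livers, centred on group means, Hmgcs1, Msmo1 and Insig1 had a Pearson r above 0.7 with the mean of the other members. Within groups, r was 0.96 in oil and 0.72 in CCl4 livers for Hmgcs1 with Msmo1, and 0.88 and 0.90 for Msmo1 with Insig1. For Hmgcs1 with Insig1 it was 0.94 and 0.50, and in oil -0.32 without the 2 livers farthest from the median. Insig2, Tm7sf2 and Scap had the 3 smallest p-values between the groups. Each is the 250 bases before an annotated transcript start, read 5′ to 3′ on the gene's own strand, from RefSeq for GRCm38.p6. Capitals mark CCAAT, the letters bound by NF-Y, and TCACNCCAC, the letters of the classical sterol regulatory element to which SREBPs bind, each on either strand (ATTGG is CCAAT on the other strand).
Hmgcs1 (chr13:119690101-119690350, plus strand): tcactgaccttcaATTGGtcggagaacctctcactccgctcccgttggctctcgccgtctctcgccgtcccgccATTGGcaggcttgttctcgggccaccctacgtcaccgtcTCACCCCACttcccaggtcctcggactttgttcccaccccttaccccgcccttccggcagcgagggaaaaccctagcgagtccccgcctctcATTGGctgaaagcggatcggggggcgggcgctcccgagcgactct
Msmo1 (chr8:64733579-64733828, minus strand): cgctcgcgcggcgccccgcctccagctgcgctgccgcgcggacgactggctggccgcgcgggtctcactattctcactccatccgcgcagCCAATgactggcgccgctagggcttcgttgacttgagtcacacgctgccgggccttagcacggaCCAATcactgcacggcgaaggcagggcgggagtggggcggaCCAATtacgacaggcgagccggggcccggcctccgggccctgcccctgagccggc
Insig1 (chr5:28071162-28071411, plus strand): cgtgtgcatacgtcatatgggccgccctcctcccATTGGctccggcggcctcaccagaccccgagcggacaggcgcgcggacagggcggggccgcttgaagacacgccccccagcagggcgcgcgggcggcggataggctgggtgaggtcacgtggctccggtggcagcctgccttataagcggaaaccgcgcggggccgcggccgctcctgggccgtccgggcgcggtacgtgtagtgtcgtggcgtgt
Insig2 (chr1:121332590-121332839, minus strand): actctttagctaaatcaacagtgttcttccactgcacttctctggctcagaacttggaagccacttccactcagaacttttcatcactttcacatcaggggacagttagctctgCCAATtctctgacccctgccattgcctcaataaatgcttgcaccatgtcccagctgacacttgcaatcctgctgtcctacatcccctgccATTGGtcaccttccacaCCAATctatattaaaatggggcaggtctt
Tm7sf2 (chr19:6067851-6068100, minus strand): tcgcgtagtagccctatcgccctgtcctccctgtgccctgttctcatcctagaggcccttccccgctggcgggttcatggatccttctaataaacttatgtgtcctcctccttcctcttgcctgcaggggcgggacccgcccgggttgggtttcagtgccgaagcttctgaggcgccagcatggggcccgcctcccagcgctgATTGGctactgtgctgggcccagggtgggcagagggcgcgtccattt
Scap (chr9:110333038-110333287, plus strand): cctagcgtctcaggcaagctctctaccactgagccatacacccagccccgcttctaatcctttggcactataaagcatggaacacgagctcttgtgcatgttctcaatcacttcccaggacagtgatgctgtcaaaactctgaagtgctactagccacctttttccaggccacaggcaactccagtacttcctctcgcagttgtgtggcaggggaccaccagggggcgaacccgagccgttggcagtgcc

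Of the 27 members, 22 had an entry in the promoter table, with 28 windows of 300 bases (250 before and 50 after the start). CCAAT stood in 20 of these 28 windows and in at least 1 window of 20 of the 22 members, against 37.4% of all 32851 windows. TCACNCCAC stood in the window of Hmgcs1 alone among the 22 members, and in 1.24% of all windows. GGGCGG, the letters bound by Sp1, stood in 23 of the 28 windows, against 35.7% of all windows and 57.2% of the windows of tested genes. CACGTG, an E-box, stood in 6 of the 28, against 7.15% of all. None of the 4 motifs contains another, and both strands were read. Scap and Acat2 had no CCAAT in these windows. The Insig2 stretch lies before the farthest upstream of its 3 annotated starts and holds 3 CCAAT matches, and the windows of its other starts hold none. A match in letters is a description of the sequence and was not tied to binding.

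CCl4 livers held less RNA of several members of the set, and no member was called higher. By edgeR's quasi-likelihood test with Benjamini-Hochberg adjustment over all tested genes and a threshold of 0.05, 7 of the 27 members (25.9%) fell: Insig2, Scap, Tm7sf2, Npc1, Nsdhl, Pmvk and Hsd17b7. The same test called 18.4% of all 16032 genes lower and 20.6% higher. No member passed in the higher direction, with 0 at an unadjusted p under 0.05, 0 by DESeq2 and 0 by limma-voom. Among the members 22 had a negative and 5 a positive log2 fold change, and their median was -0.37, beside 0.01 over all tested genes. In 2 members, Insig2 and Tm7sf2, every CCl4 liver lay below every oil liver, which was so for 8.03% of all tested genes.

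**Figure D1:**
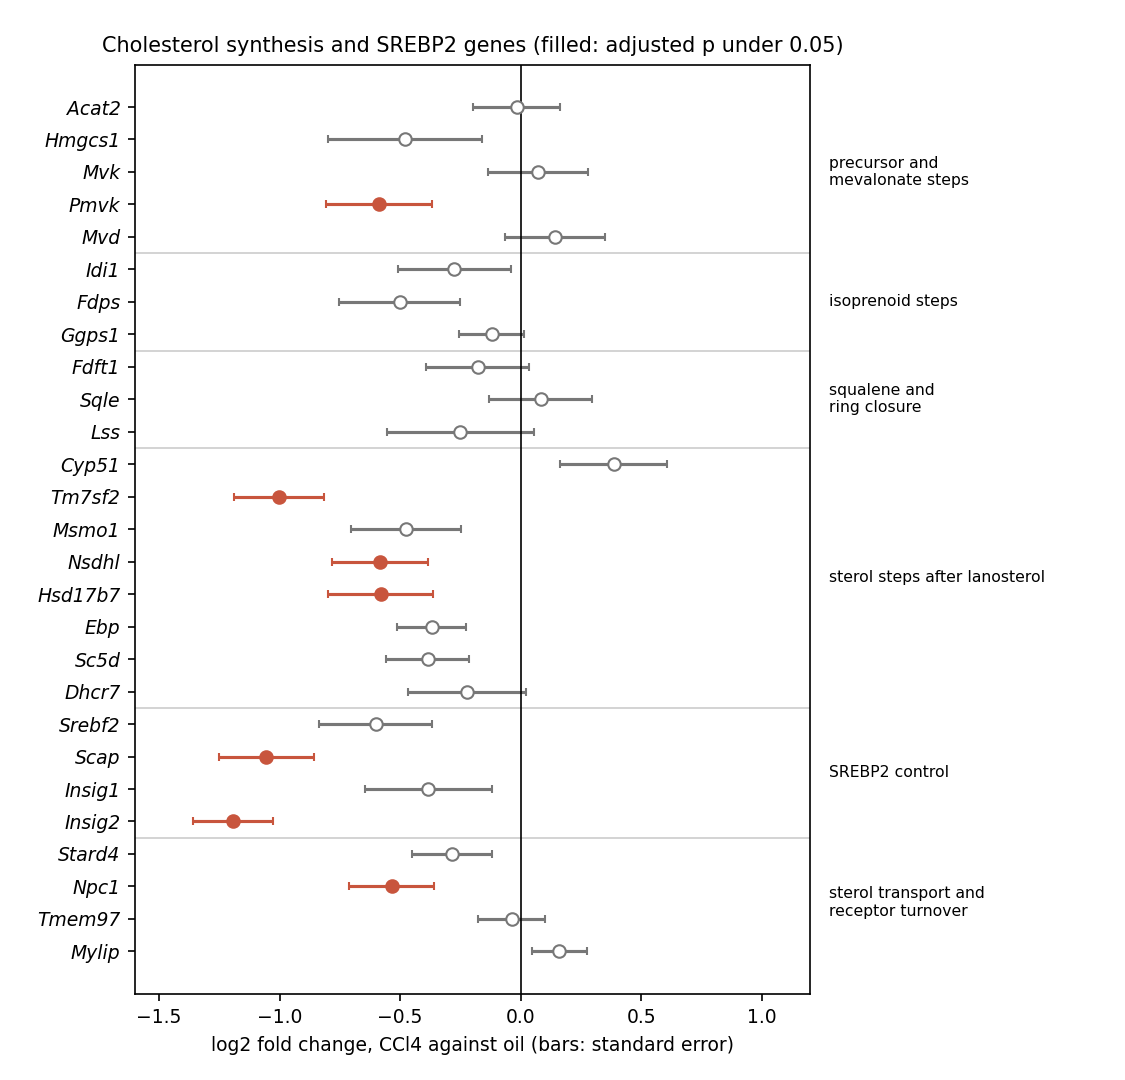
Log2 fold change of each of the 27 members, CCl4 against oil (6 livers each), with its standard error as a bar, grouped by step of the pathway. Filled points passed an adjusted p of 0.05; the 7 filled points all lie left of 0, and Insig2 lies farthest left at -1.19.

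Of the 6 roles into which the members were divided, SREBP2 control had the lowest median log2 fold change (-0.83), with 2 of its 4 genes fallen and none risen. The counts by role stand beside 18.4% of all tested genes called lower and 20.6% called higher. Insig2, which keeps Scap and SREBP2 in the endoplasmic reticulum (gene ID 72999, chromosome 1, 121304353 to 121332589 in GRCm38), was at 372, 510 and 572 CPM in the lowest, median and highest oil liver, where CPM is the count per 1000000 counts after TMM scaling. In CCl4 livers it was at 135, 212 and 269 CPM. The groups did not overlap, and the lowest oil liver was replicate 3. The fitted level was 2.29-fold lower (log2 fold change -1.19 ± 0.17 SE, edgeR adjusted p = 7.14e-05). Scap, the escort and sterol sensor (gene ID 235623, chromosome 9, 110333288 to 110384950), was at 72.9, 124 and 140 CPM in oil and 36.0, 56.2 and 73.5 CPM in CCl4. The groups overlapped only because oil replicate 5, at 72.9 CPM, lay just under CCl4 replicate 1, the highest CCl4 liver. Scap fell 2.08-fold (-1.06 ± 0.20 SE, edgeR adjusted p = 0.000792). Of its annotated exonic bases 13.2% overlap a transcript on the opposite strand, and whether counting used the strand is not known from the sources.

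Srebf2 itself and Insig1 did not pass. Srebf2 was at 45.7, 68.7 and 87.0 CPM in oil and 27.8, 41.5 and 72.5 CPM in CCl4, with a log2 fold change of -0.60 ± 0.23 SE (edgeR adjusted p = 0.0535). The highest CCl4 liver, replicate 5, and the lowest oil liver, also numbered 5, set the overlap between the groups. Insig1, the isoform that SREBP2 itself switches on, was at 175, 405 and 516 CPM in oil and 158, 295 and 408 CPM in CCl4 (-0.38 ± 0.26 SE, edgeR adjusted p = 0.261). Within a liver, the ratio of Insig2 CPM to Insig1 CPM ran from 0.943 to 3.26 in oil, where 5 livers were at 1.27 or below and replicate 5 was at 3.26. In CCl4 livers the ratio ran from 0.332 to 1.31, lowest in replicate 5. The difference between the change of Insig2 and that of Insig1 was not tested.

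**Figure D2:**
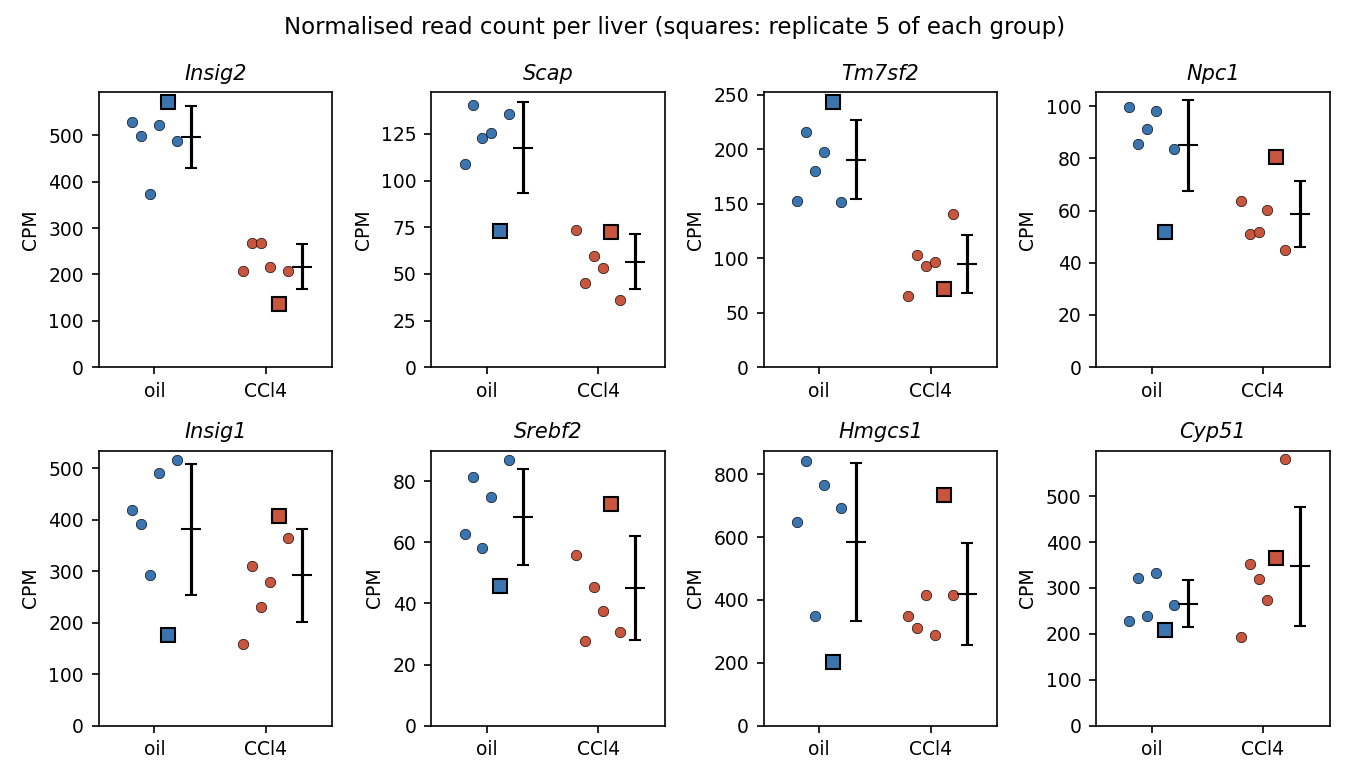
Normalised read count (CPM, linear axis from 0) of 8 members in each liver, oil left and CCl4 right, with the group mean and SD as a bar. Squares mark the replicate 5 liver of each group: among the oil livers it is lowest for Scap, Npc1, Insig1, Srebf2, Hmgcs1 and Cyp51 but highest for Insig2 (572 CPM) and Tm7sf2.

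Of the 8 enzymes that turn lanosterol into cholesterol, 3 fell and 0 rose, with a median of -0.43 and 7 of 8 values below 0. Tm7sf2, a sterol reductase that acts after the lanosterol demethylase (gene ID 73166, chromosome 19, 6062821 to 6068373), was at 152, 189 and 244 CPM in oil and 65.2, 94.8 and 140.5 CPM in CCl4. The groups did not overlap. It fell 2.0-fold (-1.0 ± 0.19 SE, edgeR adjusted p = 0.000818). Of its exonic bases 12.1% lie in Vps51 on the same strand, so some reads could belong to either gene. Nsdhl, a dehydrogenase that helps to strip methyl groups from the sterol ring (gene ID 18194, chromosome X, 72918557 to 72958514), was at 66.4, 137 and 148.5 CPM in oil and 63.8, 76.2 and 115 CPM in CCl4. Oil replicate 5 lay within the CCl4 range, and the log2 fold change was -0.58 ± 0.20 SE. Hsd17b7, the keto-reductase of the same demethylation (gene ID 15490, chromosome 1, 169949535 to 169969241), was at 45.3, 70.4 and 88.8 CPM in oil and 31.0, 42.2 and 75.6 CPM in CCl4. The groups overlapped in several livers. Hsd17b7 passed narrowly (-0.58 ± 0.22 SE, edgeR adjusted p = 0.0480).

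The other enzymes after lanosterol did not pass. Cyp51, the lanosterol demethylase, had the largest positive value of all 27 members, at 209, 251.5 and 333 CPM in oil and 194, 336 and 580 CPM in CCl4 (0.39 ± 0.22 SE, edgeR adjusted p = 0.178). Its lowest and its highest liver were both CCl4 livers. Msmo1, the sterol methyl oxidase, stood at -0.48 ± 0.23 SE (edgeR adjusted p = 0.114). Ebp, a sterol isomerase, stood at -0.37 ± 0.14 SE (edgeR adjusted p = 0.0534), close to the threshold. Sc5d, a desaturase, stood at -0.39 ± 0.17 SE. Dhcr7, a reductase of the last steps to cholesterol, was at 60.4, 170.5 and 202 CPM in oil and 102, 126 and 176 CPM in CCl4, so that its lowest liver was an oil liver (-0.22 ± 0.24 SE, edgeR adjusted p = 0.483).

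In the steps to mevalonate and its decarboxylation, 1 of 5 genes fell and the median was -0.02. Pmvk, phosphomevalonate kinase (gene ID 68603, chromosome 3, 89454541 to 89469013), was at 60.8, 84.4 and 152 CPM in oil and 44.6, 62.4 and 90.2 CPM in CCl4. It fell 1.5-fold (-0.59 ± 0.22 SE, edgeR adjusted p = 0.0471), with ranges that overlapped. Hmgcs1, the cytosolic HMG-CoA synthase, had the widest spread within groups of all members (SD of 0.66 on the log2 scale), from 203 to 844 CPM in oil with a median of 670, and from 289 to 733 CPM in CCl4 with a median of 382. The lowest and the highest liver were both oil livers, and the difference of -0.48 ± 0.32 SE did not pass (edgeR adjusted p = 0.247). Of the exonic bases of Hmgcs1 12.1% overlap a transcript on the opposite strand. Mvd, the decarboxylase, was at 18.3, 29.8 and 39.2 CPM in oil and 26.3, 29.6 and 49.7 CPM in CCl4 (0.14 ± 0.21 SE, edgeR adjusted p = 0.603). Acat2, the cytosolic thiolase, and Mvk, mevalonate kinase, had values of -0.02 ± 0.18 SE and 0.07 ± 0.21 SE.

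None of the 3 isoprenoid genes and none of the 3 genes from squalene to lanosterol passed, with medians of -0.28 and -0.18. Fdps, farnesyl diphosphate synthase, was at 23.5, 49.0 and 70.1 CPM in oil and 24.1, 33.3 and 50.01 CPM in CCl4 (-0.50 ± 0.25 SE, edgeR adjusted p = 0.126). Of its exonic bases 26.7% are shared with a same-strand gene model. Ggps1, which makes geranylgeranyl diphosphate for protein prenylation rather than for sterols, was among the 3 members with the least spread: 7.53, 10.6 and 12.3 CPM in oil and 8.29, 9.33 and 10.6 CPM in CCl4 (-0.12 ± 0.13 SE, edgeR adjusted p = 0.492). Idi1, the diphosphate isomerase, was read at only 1.14 to 2.44 CPM over the 12 livers. How the authors counted reads that fit close copies of a gene is not known, so this level may be too low. Lss, lanosterol synthase, was at 45.4, 94.6 and 135 CPM in oil and 48.5, 64.9 and 154 CPM in CCl4, a spread that exceeded its difference (-0.25 ± 0.31 SE, edgeR adjusted p = 0.532). Fdft1, squalene synthase, and Sqle, squalene epoxidase, stood at -0.18 ± 0.21 SE and 0.08 ± 0.21 SE. Of the exonic bases of Fdft1 18.3% overlap the gene Ctsb on the opposite strand.

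Among the 4 genes of sterol transport and receptor turnover, 1 fell. Npc1, which exports cholesterol from lysosomes (gene ID 18145, chromosome 18, 12189692 to 12236400), was at 51.9, 88.5 and 99.6 CPM in oil and 44.9, 56.0 and 80.6 CPM in CCl4. The 5 other oil livers, at 83.7 CPM or above, were higher than every CCl4 liver, while oil replicate 5 lay within the CCl4 range. Npc1 fell 1.45-fold (-0.54 ± 0.18 SE, edgeR adjusted p = 0.0261). Mylip, the ubiquitin ligase that marks lipoprotein receptors for breakdown, had the least spread of all members and was at 7.66, 9.76 and 10.2 CPM in oil and 9.25, 10.3 and 11.6 CPM in CCl4 (0.16 ± 0.12 SE, edgeR adjusted p = 0.285). Tmem97, a sterol-responsive membrane protein that binds Npc1, was at 14.3, 15.7 and 17.0 CPM in oil and 12.6, 14.4 and 21.9 CPM in CCl4 (-0.04 ± 0.14 SE, edgeR adjusted p = 0.851). Stard4, a soluble sterol carrier, stood at -0.28 ± 0.17 SE.

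How firm these calls were differed between members. Insig2, Scap and Tm7sf2 passed under each of the 20 alternatives tried (other scalings, filters and tools, a covariate for transcript length, and each liver left out). Npc1 passed in 14 of the 20, Nsdhl in 11, Pmvk in 10 and Hsd17b7 in 7. The count of fallen members moved by more than 1.5 times in both directions: 3 with upper-quartile scaling (12.6% of all genes), 15 with limma-voom (27.1%) and 11 without oil replicate 5 (21.2%). It was 3 without CCl4 replicate 2, oil replicate 3 or oil replicate 4, each left out alone, and 4 without CCl4 replicate 4 or oil replicate 2. The share of all genes called lower is not given here for those fits. A move of all genes thus cannot be told from a move of the members there. With upper-quartile scaling the median of all genes rose to 0.13 and that of the members to -0.25, so that the members stood at -0.39 relative to all genes, beside -0.38 with TMM. With the covariate for transcript length the median of the members was -0.23, or -0.21 relative to all genes, and Lss and Dhcr7 had positive values. Acat2, Ggps1 and Tmem97 had positive values under upper-quartile scaling.

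Ordered by level per length, the members covered a wide range. CPM was divided by the length in kilobases of the longest annotated coding transcript, which lets genes be set beside each other. In oil livers Insig2 led with a mean level of 184 CPM per kb, then came Ebp with 179, Hmgcs1 with 169, Msmo1 with 141.5 and Insig1 with 141. Mylip with 3.03, Ggps1 with 2.41 and Idi1 with 0.650 CPM per kb were the lowest, the last with the limit on its counting given above. In CCl4 livers the level of Insig2 was 80.5 CPM per kb, below Ebp with 139, Hmgcs1 with 121, Insig1 with 108, Msmo1 with 102, Sc5d with 91.4 and Cyp51 with 88.4. Neighbours in the order among the 5 leading genes differed by less than the spread of Hmgcs1 and of Insig1 between livers, in both groups.

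Averaged over the 27 members, an oil liver had a mean log2 CPM of 6.40 ± 0.30 and a CCl4 liver of 6.06 ± 0.23 (SD, n = 6 each), a difference of -0.34. The oil livers ran from 5.89 to 6.70 with a median of 6.45, and the CCl4 livers from 5.80 to 6.41 with a median of 6.02. The groups overlapped: oil replicate 5, the lowest, lay below 5 of the 6 CCl4 livers. Oil replicate 5 was the lowest oil liver for 18 of the 27 members, and oil replicate 2 the highest for 12. Among CCl4 livers replicate 5 was the highest for 15 members and replicate 1 the lowest for 13. The SD of log2 CPM was larger in oil than in CCl4 for 16 of 27 members, beside 38.6% of all tested genes.

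**Figure D3:**
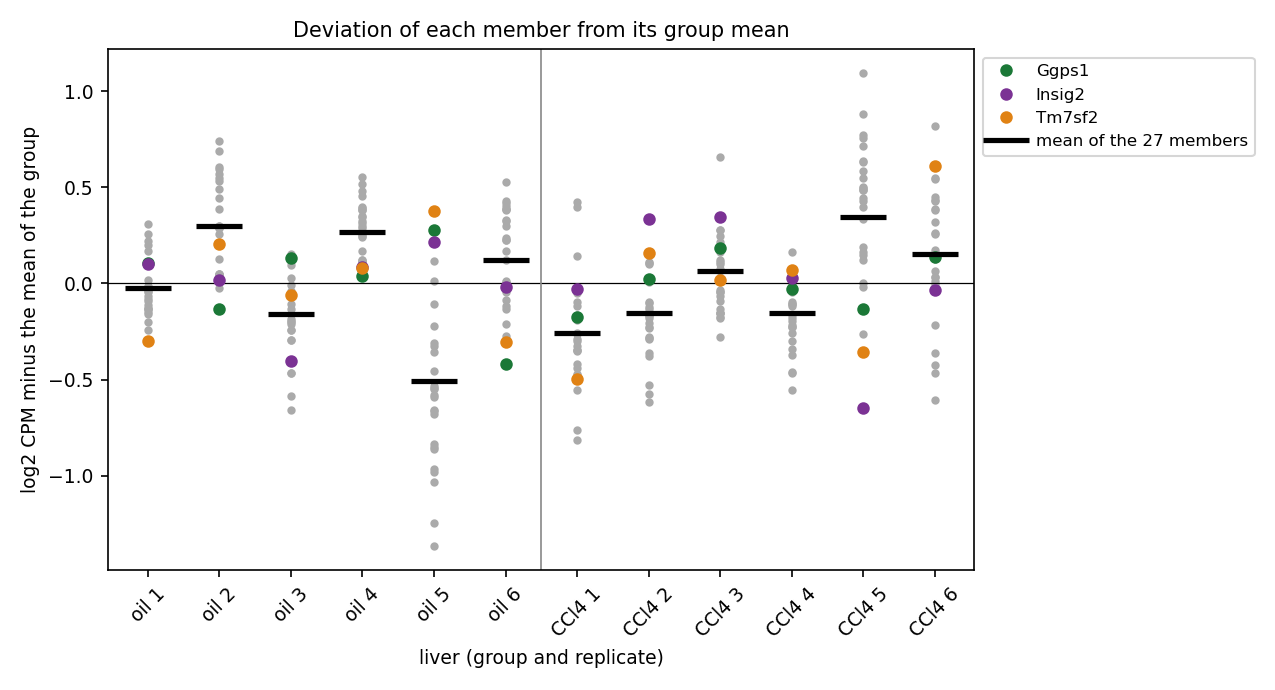
Log2 CPM of every member in each liver minus the mean of its group (grey points), with the mean over the 27 members as a black line; Ggps1, Insig2 and Tm7sf2 are coloured. In oil replicate 5 the mean lies at -0.51 while the 3 coloured genes lie above 0, and in CCl4 replicate 5 the mean lies at 0.35 while they lie below 0.

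Levels of most members varied together from liver to liver within a group. Over the 351 pairs of members, the median Pearson r of log2 CPM was 0.69 between the 6 oil livers and 0.47 between the 6 CCl4 livers, beside 0.00 and 0.01 over all pairs of tested genes. In each group 271 of the 351 pairs (77.2%) were positive, and r was above 0.8 for 124 pairs in oil and 77 in CCl4. Without oil replicate 5 the median in oil was 0.54, and without each of the other oil livers it ran from 0.68 to 0.75. In CCl4 it ran from 0.45 to 0.57 as each liver was left out. These medians describe 6 livers per group, and the pairs share them. The difference between the groups was not tested.

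Single pairs were tested by exact two-sided permutation of the 6 livers, adjusted over 702 pair tests, and 0 passed in either group. The smallest p was 0.00139, the smallest that permuting 6 livers can give for r. In oil the highest r was that of Fdft1 and Lss, at 0.99 (Spearman's rho 0.94, exact permutation p = 0.00417, adjusted 0.117 for r, and p = 0.0167, adjusted 0.244 for rho), with r at 0.93 without the 2 livers farthest from the median. The lowest r in oil was that of Ggps1 and Srebf2, at -0.89 (rho -1, exact permutation p = 0.0167, adjusted 0.135 for r, and p = 0.00278, adjusted 0.177 for rho), and at -0.99 without those 2 livers. In CCl4 the highest r was that of Hsd17b7 and Mylip, at 0.98 (rho 1, exact permutation p = 0.00139, adjusted 0.115 for r, and p = 0.00278, adjusted 0.177 for rho; 0.99 without the 2 farthest livers). The lowest in CCl4 was that of Tm7sf2 and Scap, at -0.97 (rho -1, exact permutation p = 0.00139, adjusted 0.115 for r, and p = 0.00278, adjusted 0.177 for rho; -0.94 without them). Tm7sf2 and Scap, which both fell after CCl4, thus ran in opposite order across the CCl4 livers. CCl4 replicate 6, with the lowest slope of log2 CPM on log2 transcript length (-0.39), had Scap at 36.0 and Tm7sf2 at 140.5 CPM. Replicates 1 and 5, with the highest slopes (0.11 and 0.17), had Scap at 73.5 and 72.4 and Tm7sf2 at 65.2 and 72.0 CPM. The longest coding transcript is 4227 bases for Scap and 1498 for Tm7sf2. The part of this slope in the pair was not tested.

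**Figure D4:**
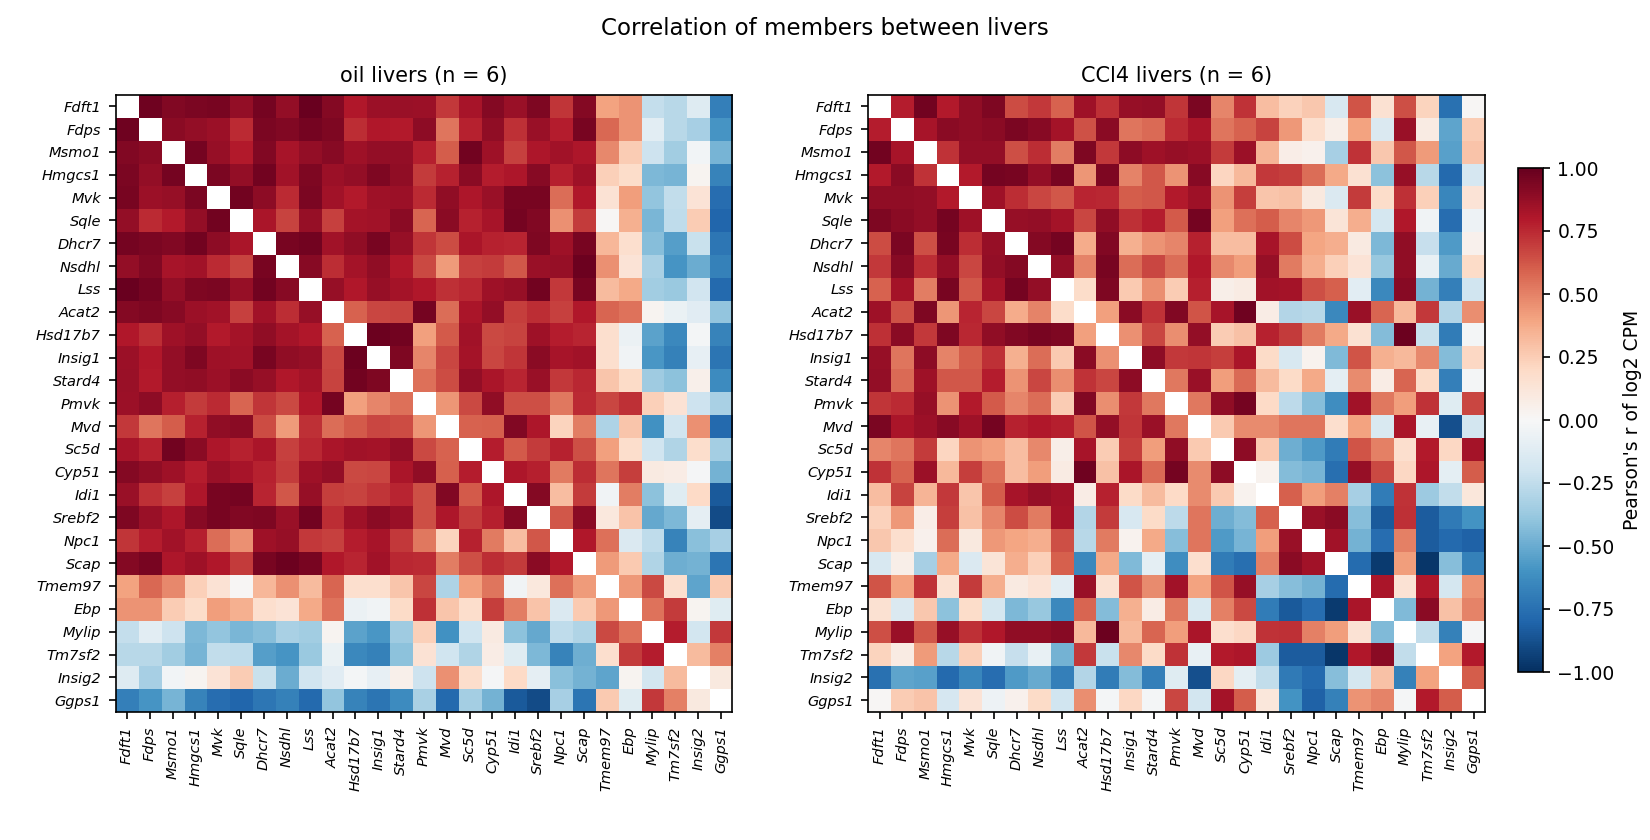
Pearson's r of log2 CPM between each pair of members over the 6 oil livers (left) and over the 6 CCl4 livers (right), in 1 gene order, red positive and blue negative. The block of red at upper left holds the members that moved together. Insig2, Tm7sf2 and Ggps1 at the edge are mostly pale or blue in oil and have pairs of both signs in CCl4.

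Not all members took part to the same degree. Over the 12 livers, each centred on its group mean, 16 members had an r above 0.7 with the mean of the other 26, led by Fdft1 (0.95), Fdps (0.95), Msmo1 (0.94) and Hmgcs1 (0.93). The lowest were Ggps1 (-0.42), Insig2 (-0.38), Tm7sf2 (-0.12), Mylip (0.08) and Ebp (0.12). Of the 16 that tracked the rest 3 fell after CCl4 (Pmvk, Nsdhl and Hsd17b7), and of the other 11 members 4 fell (Insig2, Scap, Tm7sf2 and Npc1). The 3 members called under every alternative were thus all among those with an r of 0.7 or less over the 12 livers. Within groups, however, the r of Scap with the other members was 0.88 in oil and -0.07 in CCl4 livers. Srebf2 (0.92 and 0.29), Cyp51 (0.90 and 0.61) and Npc1 (0.73 and 0.205) also had a higher r in oil. For Insig2 it was -0.09 in oil and -0.66 in CCl4, and for Tm7sf2 -0.34 and 0.08. This division by r is a description, made after the values were seen.

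Genes outside the set that followed its mean most closely, ranked by Pearson r over the 12 centred livers among 11682 expressed genes (log2 CPM of 1 or more on average), included Rdh11, a retinol dehydrogenase, with an r of 0.95. It ran from 45.6 to 124 CPM in oil and from 45.3 to 76.7 CPM in CCl4. Next came Prkce (0.87), a protein kinase C, Acsl5 (0.86), an acyl-CoA synthetase, and then Epc2, Sgk2, Oit3, Mpzl1, Asb7 and Adam23 with r from 0.86 down to 0.85. These r are the highest of a long ranking over 12 libraries and are given without a p.

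The neighbours of the pathway were counted in lists from the same fit, which called 18.4% of all tested genes lower and 20.6% higher. Of 15 genes of SREBP processing and sterol-sensed protein breakdown 2 fell and 2 rose (median -0.13). The risen count was 1 when any of 9 of the 12 livers was left out (all but CCl4 replicates 2 and 6 and oil replicate 5), and the fallen count was 1 without CCl4 replicate 2 and 4 without CCl4 replicate 5. Mbtps1, the Golgi protease that makes the first cut in SREBPs, named here after its value was seen, went from 58.0, 63.5 and 69.8 CPM in oil to 24.3, 47.8 and 53.5 CPM in CCl4, a 1.47-fold fall without overlap (edgeR adjusted p = 0.0217). Erlin1, an endoplasmic reticulum membrane protein that restrains SREBP activation, rose from 53.8, 57.9 and 68.7 CPM in oil to 62.3, 95.3 and 128 CPM in CCl4, a rise of 1.58-fold with overlap (edgeR adjusted p = 0.00394).

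Of 10 tested genes of other sterol and mevalonate enzymes, out of 11 listed, 4 fell and 1 rose (median -0.49). Cyb5b, a cytochrome b5 of the outer mitochondrial membrane, fell 1.88-fold (edgeR adjusted p = 0.000152). Lbr, the nuclear envelope protein with the same sterol reductase activity as Tm7sf2, rose 1.42-fold, from 12.2, 13.8 and 16.3 CPM in oil to 12.7, 18.9 and 26.95 CPM in CCl4 (edgeR adjusted p = 0.0241). The ranges of Lbr overlapped, and its rise did not pass without CCl4 replicate 2, CCl4 replicate 6 or oil replicate 1, or with the length covariate. Tm7sf2 and Lbr were thus called in opposite directions, a difference between genes that was not itself tested. Of 14 genes of the dolichol, ubiquinone and prenylation branches, which draw on the same isoprenoids, 1 fell (Pdss2, of the enzyme that makes the ubiquinone tail, 1.36-fold, edgeR adjusted p = 0.00835) and 2 rose, among them Srd5a3, a polyprenol reductase of dolichol synthesis, by 1.61-fold (edgeR adjusted p = 0.000844), with a median of 0.11. The fallen count of these branches was 3 without CCl4 replicate 1 or CCl4 replicate 5, 2 without oil replicate 1 or oil replicate 5, and 4 with limma-voom.

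Of 14 genes of sterol transport, storage and ester hydrolysis 3 fell and 3 rose (median -0.17), with 1 fallen without oil replicate 2 or oil replicate 3 and 6 with DESeq2. Scp2, a peroxisomal sterol carrier and thiolase, fell 2.29-fold from 1636, 1946 and 2218 CPM to 650, 826 and 1052 CPM (edgeR adjusted p = 1.83e-05). Soat1, which esterifies cholesterol in macrophages and many other cells, rose 4.11-fold from 2.02, 2.68 and 3.51 CPM to 9.67, 10.8 and 13.4 CPM (edgeR adjusted p = 4.58e-07). Neither gene had overlapping groups. Of 9 tested genes of LXR, the sterol-activated nuclear receptor, out of 10 listed (targets and the receptor genes Nr1h3 and Nr1h2), 4 fell and 2 rose (median -0.31). The receptor gene Nr1h2, named after its value was seen, was among the 4. Abcg8, a canalicular sterol exporter subunit, fell 2.54-fold (edgeR adjusted p = 0.000139), and Abcg1, a sterol exporter of macrophages, rose 2.07-fold (edgeR adjusted p = 2.54e-05). Of 15 genes of SREBP1 and fatty acid synthesis 9 fell and 1 rose (median -0.68), with 2 risen without CCl4 replicate 6. Me1, malic enzyme, fell 2.25-fold (edgeR adjusted p = 3.07e-05), and Pnpla3, a lipid droplet protein, rose from 0.104, 0.437 and 0.710 CPM to 1.93, 2.88 and 7.22 CPM (edgeR adjusted p = 7.45e-05).

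Other features of the livers differed between the groups beside these values. The 8 hepatocyte markers summed to 111000 to 157000 CPM in oil and 112000 to 167000 CPM in CCl4, with 1 fallen and 1 risen. All 8 markers of pericentral hepatocytes fell, with sums of 8010 to 9710 CPM in oil and 746 to 1430 CPM in CCl4. Of the 6 periportal hepatocyte markers 3 fell and 1 rose, with sums of 3770 to 7580 CPM in oil and 2140 to 3870 CPM in CCl4. Of 7 macrophage markers 6 rose (146 to 206 against 421 to 622 CPM), as did 6 of 6 stellate cell and myofibroblast markers (43.1 to 118 against 411 to 713 CPM) and 4 of 4 of dividing cells (2.24 to 6.05 against 24.4 to 51.1 CPM). Skeletal muscle markers summed to 201 CPM in CCl4 replicate 1, 39.1 CPM in CCl4 replicate 3 and 1.24 CPM or less in every other liver. Of the adrenal markers Cyp11b1 and Mc2r and of the adipocyte markers Lep had no count in any liver. Total counts ran from 43027778 to 70375852. Mitochondrial genes took 5.07% of counts in oil and 2.93% in CCl4 (exact permutation p = 0.00216, two-sided, adjusted over 3 measures 0.00648). The slope of a library's log2 CPM on log2 transcript length was lowest in oil in replicate 5 (-0.15), and in CCl4 highest in replicate 5 (0.17) and lowest in replicate 6 (-0.39). With this slope as a covariate Npc1, Nsdhl and Hsd17b7 did not pass (edgeR adjusted p = 0.103, 0.171 and 0.223) and Ebp did (0.000771). The part of the cell markers and the mitochondrial share in the members' values was not tested.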

How the data were processed

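The authors deposited raw read counts per gene (whole numbers, Entrez gene IDs), and the columns of the series table equalled the 12 sample files. Per the labels' protocols, libraries were made from total RNA with a stranded kit. The build is GRCm38 per the submitters' processing notes. The sources used here name no aligner, counting tool or annotation and do not say whether strand was used, and overlapping genes may share reads. Symbols came from RefSeq GRCm38.p6 (31049 IDs) and GENCODE M21 (78 IDs); 5401 unnamed IDs held 2.19% of counts. GENCODE gave coordinates, exonic overlap and transcript length.

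The 6 CCl4 and 6 oil livers were compared by the robust quasi-likelihood F test of edgeR 4.0.16 (R 4.3.3) after filterByExpr and TMM scaling, without covariates. P-values were adjusted by Benjamini-Hochberg over 16032 genes, with a threshold of 0.05. A prior count of 2 entered log2 CPM. SE was the size of the log2 fold change divided by the square root of F. Alternatives used limma 3.58.1, DESeq2 1.42.0, other scalings, filters, a length covariate and 12 fits without 1 liver. The script was tested on simulated counts. The labels do not say that the libraries come from separate animals, so p-values measure the spread between these samples. Total counts of 43027778 to 70375852 limit precision only for genes near 1 CPM, such as Idi1 (at least 62 counts per liver).

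The members, the lists and the tests were chosen with earlier results of these data known. Full values were given for members past the threshold, the 3 with the lowest p in each direction, the 5 with the largest and the 3 with the smallest SD within groups, and the 4 of SREBP2 control; of each list, the called gene with the smallest p in each direction. Some genes are not reported here.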

Additional observations from a re-analysis of the deposited data

Results flagged for a closer look

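In 4 of 56 sets of 6 livers examined (27 members and their mean, in each group), the lowest or highest liver stood apart from the other 5 on the log2 scale by more of the range than Dixon's critical value allows (the 95% level). Chance gives about 1 in 20. Oil replicate 5 was low for Nsdhl, at 66.4 CPM, and for Npc1, at 51.92 CPM. Oil replicate 3 was low for Insig2, at 372.3 CPM, a gap that equals the critical value after rounding. CCl4 replicate 6 was high for Tmem97, at 21.86 CPM.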

How the results depend on the processing

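The number of members fallen was 7, and it was 3 with upper-quartile scaling (12.6% of all genes) and 15 with limma-voom (27.1%). Leaving out each liver gave 3 to 11 fallen members, 11 without oil replicate 5 (21.2% of all genes). The other 6 alternatives gave 5 to 9 (filtering left out 6, at least 50 counts in 6 libraries 5, size factors of DESeq2 8, DESeq2 itself 9, factors without mitochondrial and the 20 largest genes 8, length covariate 5). Of all tested genes 21.8% were called lower with the length covariate and 22.8% without CCl4 replicate 5. The share is not given here for the remaining fits. No alternative called a member higher. The difference in the mean per liver ran from -0.52 (median over members) to -0.22 (upper-quartile scaling). The median r in oil was 0.54 without oil replicate 5 and 0.54 to 0.75 over the 6 such fits, which were added after the data were seen. The cause of these moves was not tested. Among the lists, the fallen SREBP processing genes ran from 0 (upper-quartile scaling) to 4, those of the dolichol, ubiquinone and prenylation branches from 1 to 4, those of sterol transport from 1 to 6 and those of SREBP1 and fatty acid synthesis from 5 to 11. Mbtps1 passed in 18 and Lbr in 16 of 20 alternatives. No paired analysis was possible because the labels give the livers no shared replicate numbers. With 6 livers per group, a member whose groups overlap is not shown to be unchanged.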
